A study of Mus musculus with 4 samples.

Results

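The 83 cytosolic ribosomal protein genes of the mouse ovary were followed in 2 libraries that overexpress the oxytocin receptor and 2 wild-type libraries. They were chosen by name alone from the 21958 genes of the deposited table: every symbol of the form Rps or Rpl with a number and an optional isoform letter, with Rpsa, Rplp0, Rplp1 and Rplp2 added, and with pseudogene and S6 kinase names left out. Of these, 32 belong to the small (40S) subunit and 51 to the large (60S) subunit by name. The 6 members Rpl3l, Rpl7l1, Rpl10l, Rpl22l1, Rpl39l and Rps27l are named after another member and are called paralogues here, which leaves 77 core members. The members lie on 19 chromosomes, 4 of them on the X chromosome.

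Ovaries labelled ++Oxtr with genotype tg (called OxtrTg, replicates 3 and 4) were compared with ovaries labelled WT with genotype wt (replicates 5 and 6), all from females in diestrus per the series design text. Strain, age, and the promoter and founder line of the transgene are not stated in the labels. Nor is it stated that each library is its own animal, so every p-value here reflects library-to-library spread, part of which may be technical. The labels name ovary as the tissue, while their RNA extraction text speaks of white adipose tissue. The question was which genes differ when the oxytocin receptor is overexpressed.

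Each cytosolic ribosome holds 1 copy of most of these proteins, apart from the acidic stalk proteins P1 and P2, which are present in several copies. Their mRNAs typically begin with a C followed by a run of pyrimidines, the terminal oligopyrimidine or TOP motif, through which mTOR and the RNA-binding protein LARP1 set how much of each mRNA is translated. In the ovary, ribosomes are made in large numbers by growing oocytes and by dividing granulosa cells. These data measure mRNA level only, not translation or ribosome number. In whole tissue, fewer cells of a type and less RNA per cell cannot be told apart.

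The pyrimidine run was looked for in the 40 bases around the annotated start of each gene (20 before and 20 after), in promoter windows from RefSeq on GRCm38.p6, which held 63 of the 83 members. A run of at least 8 consecutive C or T bases on the sense strand was present in 30 of these 63 (47.6%), against 18.4% of all 27025 genes with a window. The string CTTTCC, which is all pyrimidine and so can overlap such a run or a shorter one, was searched on the sense strand over the same 40 bases and was present in 17.5% against 2.3%. CCGGAAG, the core of the motif bound by ETS factors, was searched on both strands over the 300 bases from 250 before to 50 after the start, and was present in 41.3% against 9.93%. TATAAA on the sense strand within 50 bases before the start was present in 1.59% against 3.15%. Annotated starts can lie some bases away from the true ones, so these counts describe the windows only. The sequences printed here were picked to show the run in members of both subunits among those 30, and 2 members, Rpl39l and Rplp0, that lack a long run. The longest run of C and T is in capitals, the start is base 21, and each is given 5′ to 3′ on the gene's own strand.
Rps6 (chr4:86857348-86857387, minus strand): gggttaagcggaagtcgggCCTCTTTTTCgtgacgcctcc
Rps18 (chr17:33955646-33955685, minus strand): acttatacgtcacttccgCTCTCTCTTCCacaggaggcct
Rpl38 (chr11:114668560-114668599, plus strand): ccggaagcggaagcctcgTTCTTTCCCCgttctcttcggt
Rplp2 (chr7:141447631-141447670, plus strand): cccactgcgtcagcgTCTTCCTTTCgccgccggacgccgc
Rpl15 (chr14:18270967-18271006, minus strand): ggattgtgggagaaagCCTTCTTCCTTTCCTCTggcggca
Rps10 (chr17:27635225-27635264, minus strand): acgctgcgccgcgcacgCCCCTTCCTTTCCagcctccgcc
Rpl22l1 (chr3:28805488-28805527, plus strand): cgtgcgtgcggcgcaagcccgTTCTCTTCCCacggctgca
Rpl39l (chr16:10170208-10170247, plus strand): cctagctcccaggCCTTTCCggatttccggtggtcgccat
Rplp0 (chr5:115559447-115559486, plus strand): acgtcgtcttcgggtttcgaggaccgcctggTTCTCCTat

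In Rps6, Rps18, Rpl38, Rpl15 and Rps10 the run spans the annotated start. In Rplp2 it also spans the start, and in the paralogue Rpl22l1 it begins just after it. Rpl39l and Rplp0 have runs of 7 bases. The median of the mean FPKM (a level per gene length, defined with the levels) was 200 in the 30 members with a run of at least 8 and 231 in the 33 members with a shorter run. The median log2 differences between genotypes were 0.01 over the former and 0.04 over the 31 of the latter that were tested.

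The 4 libraries held 15229810 to 16517764 counts over 17135 to 17365 genes. CPM below is the count scaled to a common library size with the TMM factors of edgeR, and paired values are given in the order replicate 3, replicate 4 and replicate 5, replicate 6. Oxtr, the gene overexpressed, had 109 and 161 CPM in the OxtrTg libraries, above the 29.2 and 55.5 CPM of the WT libraries. In edgeR its adjusted p was 1 (unadjusted p = 0.0103), and in DESeq2 its adjusted p was 0.00692. Marker levels of several cell types differed between libraries of the same genotype. Defining oviduct markers summed to 102 CPM over 7 genes in OxtrTg replicate 3 and to 1050 to 3118 in the other 3 libraries. Luteal and steroidogenic markers summed to 8973 CPM over 7 genes in WT replicate 6 and to 2234 to 2466 elsewhere. Adipocyte markers summed to 2007 and 1406 CPM over 8 genes in OxtrTg, far above the 190 and 178 CPM of WT, and their part in any genotype difference was not tested. Granulosa markers (4245 to 5086 CPM over 7 genes) and oocyte markers (454 to 896 over 8) were present in every library.

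Ribosomal protein mRNA made up 4.48% and 3.71% of the counts in OxtrTg replicates 3 and 4, and 4.40% and 3.64% in WT replicates 5 and 6. The libraries therefore formed a high and a low level within each genotype. The exact binomial 95% interval ran from 4.47% to 4.49% in OxtrTg replicate 3 and from 3.70% to 3.72% in OxtrTg replicate 4, so counting error was smaller than these gaps. The means were 4.10% ± 0.549 in OxtrTg and 4.02% ± 0.534 in WT (SD, n = 2 each), a difference of 0.0771 percentage points. An exact two-sided permutation test gave p = 0.667, where 2 libraries against 2 cannot go below 0.333. The difference between genotypes was smaller than the spread between replicates of either one. It turned negative, at -0.311 and -0.301 percentage points, without OxtrTg replicate 3 or WT replicate 6, and was 0.465 and 0.455 without OxtrTg replicate 4 or WT replicate 5.

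Levels between genes are compared per length, in FPKM, which scales a gene's count by its length in the table and by the library total. Of the members, 64 had a mean above 100 FPKM, and 40 stood among the 100 genes with the highest mean FPKM in these ovaries. The median member was at 231 FPKM, against 6.63 over all 15311 genes tested. The 77 core members had a median of 244 FPKM and quartiles of 142 and 384, and 8 of them were under 50.

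Rplp1, the acidic stalk protein P1 that recruits translation factors, had the highest mean level of all members, at 1533 and 1228 FPKM in OxtrTg and 1534 and 1179 in WT. Rps3a1, a small subunit protein at the mRNA exit side, was at 1316 and 1153 FPKM against 1276 and 1079. Rps15, in the head of the small subunit, was at 1273 and 967 FPKM against 1138 and 926. In each of these 3 genes the order of the libraries was the same within genotypes, with replicate 3 above replicate 4 and replicate 5 above replicate 6. Rpl4, a large subunit protein that lines the exit tunnel, followed at a mean of 734 FPKM, and the X-linked Rps4x at 697.

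At the other end, Rpl24 held 10 and 4 counts in OxtrTg, beside 7 and 10 counts in WT, a mean of 0.476 FPKM, although the protein sits at the subunit interface of every large subunit. Rps10, a protein of the small subunit head, had 134 and 115 counts against 116 and 109, a mean of 3.26 FPKM. Rpl13a, known from human monocytes for silencing inflammatory mRNAs off the ribosome, was at a mean of 6.81 FPKM, and Rpl23a, at the tunnel exit, at 20.1. In these 4 genes the libraries of both genotypes were low alike.

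**Figure D1:**
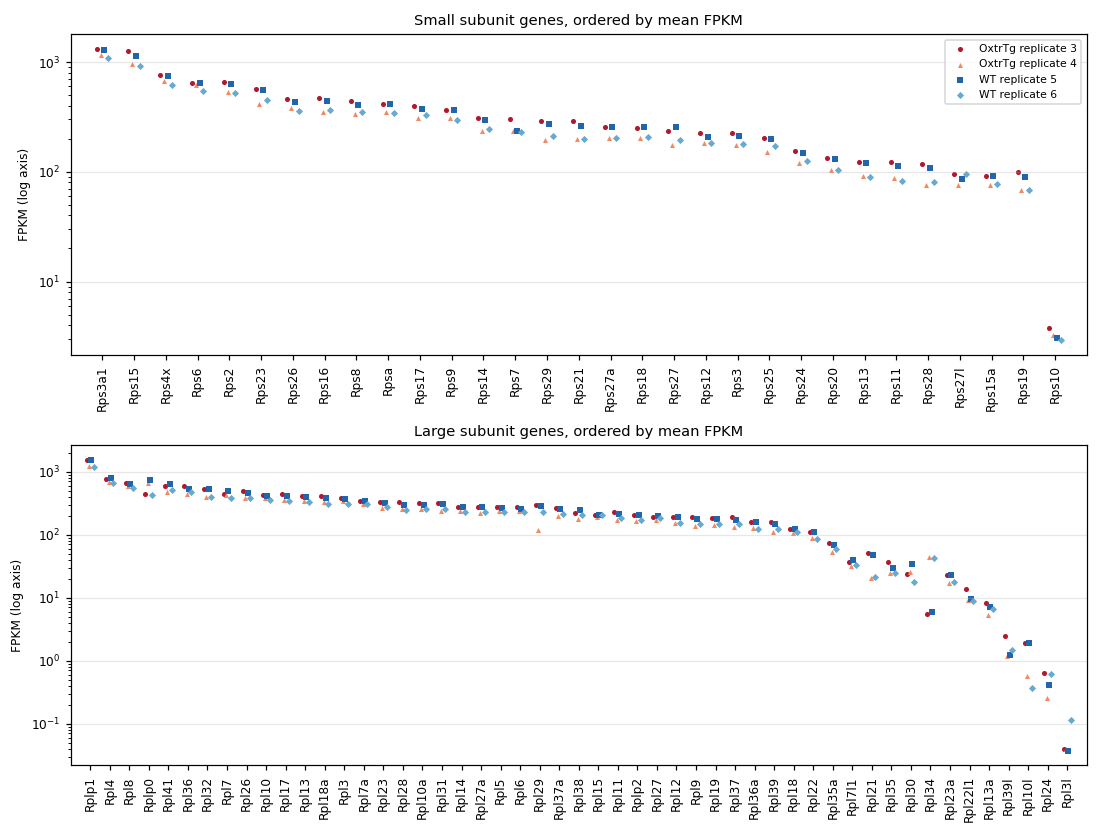
FPKM of 82 of the 83 ribosomal protein genes in each library on a log axis, small subunit above and large subunit below, ordered by mean FPKM; each symbol is 1 library. Rplp1 stands highest with a mean of 1368 FPKM, and a tail of core genes and paralogues falls below 50.

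The way reads are assigned bears on these levels, since ribosomal protein genes have many processed pseudogenes. For the 77 members, paralogues included, with a principal transcript in GENCODE M21, the share of that transcript's 50-base windows that also stand in the transcripts of a gene elsewhere in the genome had a median of 53.7%. In 43 of the 77 the share was above 50%, and for Rpl3l and Rpl39l it was 0%. It was 77.7% for Rpl24, 83.7% for Rps10 and 82.6% for Rpl23a, but 22.04% for Rpl13a, and also 92.1% for Rpl10 and 84.6% for Rps6, which stood at means of 395 and 613 FPKM. Over the 77 members, whose points share the 4 libraries, the share and the mean FPKM had a Spearman correlation of 0.136. Some copies outside the members held counts of their own. Rps27rt, which holds 98.65% of the Rps27 windows, was at a mean of 90.3 FPKM. Rpl9-ps6, which holds 78.8% of the Rpl9 windows, was at 97.3. The other copies named after a member ran from 0 to 2.88 FPKM. The part of shared sequence in any member's level was not tested. How the authors treated reads with several matches is not given in the sources used here. The members with a high share are therefore uncertain in level.

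Gene length bears on them too. The deposited length reached 6270 bases for Rps15a, whose principal GENCODE transcript has 640, so that its 84.3 FPKM became 825 CPM per kilobase of that transcript. On this second per-length scale the 77 members ran from 0.069 (Rpl3l) through a median of 617 to 1367 (Rplp1) CPM per kilobase. The order by FPKM and the order by this scale had a Spearman correlation of 0.759. The share of windows found elsewhere had a Spearman correlation of 0.337 with the level on this scale, beside 0.136 with FPKM. Rpl24, Rps10 and Rpl13a were low on both scales, at 0.723, 15.1 and 13.7 CPM per kilobase.

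No ribosomal protein gene passed the test between OxtrTg and WT. The members' fitted differences were small: 77 of the 81 tested members had a log2 difference within 0.2 of 0 (95.1%), against 63.0% of all genes tested. The genes behind the 63.0% were not matched for level, so the contrast does not show a trait of the members. Median levels were 231 FPKM in the members and 6.63 over all genes tested, with median standard errors of 0.18 and 0.22. Of the 81, 62 were positive and 19 negative, with a median of 0.03, beside a median of -0.00 over all 15311 genes. In edgeR's quasi-likelihood test with Benjamini-Hochberg adjustment over all genes, 0 members passed 0.05, where 0% of all genes passed, and the smallest unadjusted p of a member was 0.248. At an unadjusted p under 0.05 there were 0 members and 393 genes in all. DESeq2 also called 0 members at an adjusted p under 0.05, where it called 0.382% of genes. It had 0 members at an unadjusted p under 0.05, for which no share over all genes was taken. The standard errors of the members' log2 differences ran from 0.11 to 1.34, with a median of 0.18. Differences far larger than these could also go uncalled. The adipocyte marker Cfd had a log2 difference of 3.19 ± 0.14 (SE) and an adjusted p of 0.177 in edgeR. Having 0 members called therefore does not show that the members were unchanged. The median was -0.12 without OxtrTg replicate 3 and -0.08 without WT replicate 6, and 0.17 and 0.15 without OxtrTg replicate 4 or WT replicate 5, so its sign rests on which library is left out.

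Only 3 tested members had both OxtrTg libraries above both WT libraries (3.70%, where 14.5% of all genes tested did), and 0 had both below (where 11.7% did). The 3 were Rps7, Rps10 and Rpl22l1. These orders are those of TMM-scaled CPM and depend on the scale. In FPKM, OxtrTg replicate 4 lay below WT replicate 5 for Rps7 (233 and 236). The same held for Rpl22l1, whose FPKM values are given with the paralogues. Rps7, a small subunit protein that also binds Mdm2, was at 600 and 481 CPM in OxtrTg against 467 and 474 in WT. The WT values lay together and OxtrTg replicate 4 lay just above them, with a log2 difference of 0.20 ± 0.16 (SE), which was 0.03 without OxtrTg replicate 3 and 0.35 without OxtrTg replicate 4. Rps10 was at 8.68 and 7.68 CPM against 6.90 and 6.84, with a log2 difference of 0.25 ± 0.28, which was 0.16 without OxtrTg replicate 3. Among the 5 largest positive differences was also Rpl35, at the tunnel exit, with 44.4 and 30.7 CPM against 36.5 and 31.0, where the groups overlapped. Its difference was 0.16 ± 0.24 and turned to -0.14 without OxtrTg replicate 3.

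**Figure D2:**
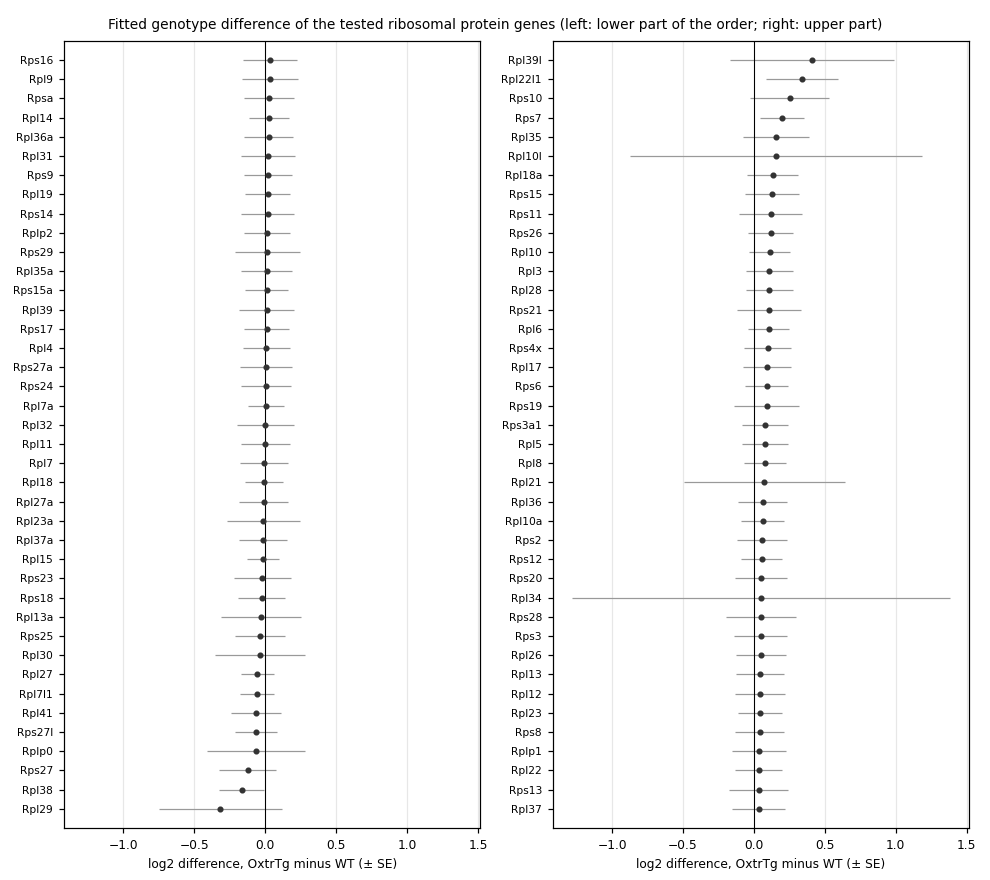
Fitted log2 difference, OxtrTg minus WT, of 80 of the 81 tested ribosomal protein genes with its standard error, ordered by size over the left and right panels. The values run from -0.32 (Rpl29) to 0.41 (Rpl39l), and most lie within 0.2 of 0.

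The result was alike for the subunits, with 0 calls in each. Among the 32 tested small subunit genes 27 differences were positive (median log2 difference 0.04), and among the 49 large subunit genes 35 were (median 0.03). Rpsa, the laminin receptor and small subunit protein, averaged 1219 ± 110 CPM in OxtrTg, beside 1196 ± 141 in WT (SD, n = 2 each), a log2 difference of 0.03 ± 0.18 (SE). Rps6, the S6 kinase substrate, was at 1001 and 1004 CPM in OxtrTg against 1014 and 869 in WT, a log2 difference of 0.09 ± 0.15. Rpl5 and Rpl11, which together with 5S RNA bind Mdm2 when ribosome assembly stalls, had log2 differences of 0.08 ± 0.16 and 0.00 ± 0.18. Each of these 4 log2 differences was smaller than its standard error.

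Members picked for their known roles were also close in level. Rps19, the gene most often mutated in Diamond-Blackfan anaemia in humans, averaged 393 ± 94.4 CPM in OxtrTg, beside 370 ± 61.9 in WT (SD, n = 2 each). Rps14, lost in the human 5q- syndrome, was at 653 ± 107 against 645 ± 76.2, and Rps26 at 656 ± 72.8 against 605 ± 65.5. Rps27a, which is made as a fusion with ubiquitin, was at 454 ± 66.9 against 452 ± 66.8. Rps3, which lies at the mRNA entry, was at 901 ± 147 against 871 ± 89.1. Rpl41, the smallest ribosomal protein, was at 630 ± 81.8 against 659 ± 83.5. Rpl10, the X-linked protein whose loading completes the large subunit, was at 843 ± 39.0 against 781 ± 63.6. In each of these 7 genes the difference between the means was smaller than the larger SD.

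The members that were lowest in OxtrTg by the fit were Rpl29, Rpl38, Rps27, Rplp0 and Rps27l. Rpl38, known in mice for its part in patterning the axial skeleton through Hox mRNA translation, was at 119 and 96.9 CPM in OxtrTg against 131 and 111 in WT, a log2 difference of -0.17 ± 0.16. Rps27 was at 245 and 188 against 264 and 207, a difference of -0.13 ± 0.20, and shares 98.6% of its windows with other genes. In both genes the groups overlapped. The difference of Rpl38 was -0.03 without OxtrTg replicate 4, -0.04 without WT replicate 5, -0.32 without OxtrTg replicate 3 and -0.29 without WT replicate 6. The difference of Rps27 was 0.05 without OxtrTg replicate 4 and 0.06 without WT replicate 5. Rpl29, a late-joining large subunit protein, was at 324 and 138 CPM in OxtrTg against 314 and 261 in WT, so that OxtrTg replicate 4 alone was low. Its log2 difference was -0.32 ± 0.43 with both OxtrTg libraries. Without OxtrTg replicate 3 DESeq2 called it lower (log2 difference -1.07, adjusted p = 0.0233), the single member called in any of the fits run, where 0.367% of genes were called. That fit holds OxtrTg replicate 4 as a lone library, takes its spread from the WT libraries, and so compares 1 low library with WT. In edgeR the same libraries gave an adjusted p of 1, and without OxtrTg replicate 4 the difference was 0.17.

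Members differed between replicates of a genotype, and nearly all in step. OxtrTg replicate 3 exceeded replicate 4 in 77 of the 81 tested members (95.1%, against 50.3% of all genes tested), with a median log2 difference of 0.29. WT replicate 5 exceeded WT replicate 6 in 76 of 81 (93.8%, against 52.5% of all genes), with a median of 0.23. Over all genes tested these medians were 0.00 and 0.02. Both held for 73 members (90.1%), against 26.2% of all genes, and in 70 of them both ratios lay between 1 and 1.5. The small subunit genes had medians of 0.31 and 0.24, and the large subunit genes 0.27 and 0.22. Of all 83 members, 63 were highest in OxtrTg replicate 3 and 16 in WT replicate 5, while 41 were lowest in OxtrTg replicate 4 and 38 in WT replicate 6. With 2 libraries a group no test of these differences between libraries was made.

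**Figure D3:**
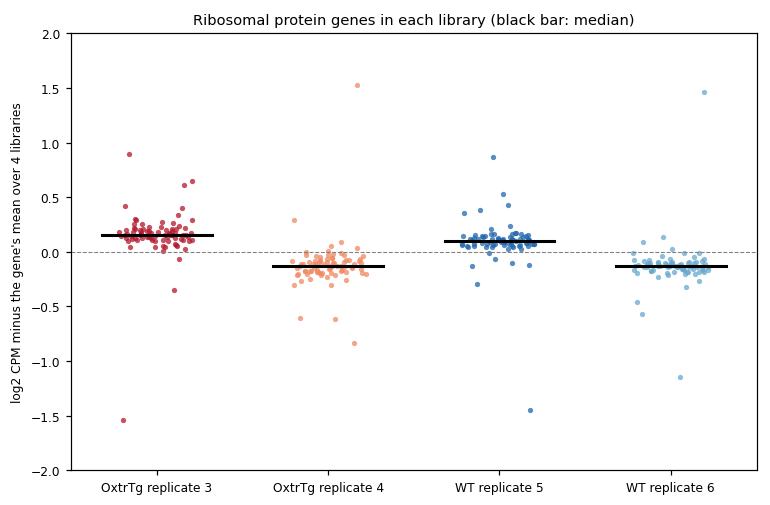
Log2 CPM of each tested ribosomal protein gene minus its own mean over the 4 libraries; each point is 1 gene and the black bars are medians. The medians are 0.15 and -0.13 in OxtrTg replicates 3 and 4 and 0.10 and -0.13 in WT replicates 5 and 6.

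Other measures moved with this gap in part, and their part in it was not tested. The 5 lymphocyte markers Cd3e, Cd4, Cd8a, Lck and Ms4a1 summed to 24.5 and 13.0 CPM in OxtrTg replicates 3 and 4 and to 47.8 and 16.4 CPM in WT replicates 5 and 6, with 5 of 5 higher in replicate 3 and in replicate 5. The 5 red cell markers summed to 249 and 135 CPM, and 80.4 and 28.6 CPM, also with 5 of 5 higher in replicates 3 and 5. The 5 macrophage markers summed to 726 and 530, and 552 and 326 CPM, with 3 and 4 of 5 higher. Oocyte markers were higher in OxtrTg replicate 3 than 4 in 8 of 8 genes (896 and 454 CPM summed), but were at 640 and 626 CPM in the WT libraries. Other lists ran the other way or in no common order. Smooth muscle markers summed to 1704 and 4044 CPM in OxtrTg (0 of 5 higher in replicate 3) and 3096 and 2233 CPM in WT (4 of 5 higher in replicate 5). Oviduct markers summed to 102 and 3118 CPM (0 of 7 higher) and 2549 and 1050 CPM (7 of 7 higher). Granulosa sums were lower in replicates 3 and 5, at 4245 and 4744 CPM in OxtrTg and 4313 and 5086 CPM in WT, with 4 and 1 of 7 genes higher there. Luteal markers summed to 2466 and 2394 CPM, and 2234 and 8973 CPM. Mitochondrially encoded genes took 3.06% and 2.64% of the counts in OxtrTg and 2.43% and 3.001% in WT, and so did not follow the same order. Short transcripts of other genes showed smaller gaps. Among tested non-members with a principal transcript of at most 500 bases (100 genes) the medians between replicates were 0.06 and -0.01, and in the 836 with 500 to 1000 bases they were 0.07 and -0.00. The 18 and 40 members in those ranges had medians of 0.29 and 0.24, and of 0.31 and 0.22. Between the OxtrTg libraries the non-member median was 0.06 at 1000 to 2000 bases, 0.01 at 2000 to 4000 and -0.08 above 4000. Of non-members above 4000 bases 39.1% were higher in replicate 3 than 4, against 59% of those of at most 500. Between the WT libraries the medians of these longer ranges were 0.01, 0.01 and -0.00. The part of transcript length in the gap was not tested.

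Some members departed from the common order by far more than the rest. Rpl34, a large subunit protein, was at 14.2 CPM in OxtrTg replicate 3, 121 in OxtrTg replicate 4, 15.2 in WT replicate 5 and 115 in WT replicate 6. Its order was the reverse of the other members within both genotypes, with ratios of 0.118 (replicate 3 over 4) and 0.131 (replicate 5 over 6). The counts behind these values were 220, 1808, 255 and 1838. The genotype difference was 0.05 ± 1.34, with a mean of 67.5 ± 75.3 CPM in OxtrTg and 65.3 ± 70.9 in WT (SD, n = 2 each). Its principal transcript shares 50.6% of its windows with 9 other genes, all annotated as pseudogenes. RefSeq gives Rpl34 windows at 2 starts, and the one with the longer run reads as follows.
Rpl34 (chr3:130730318-130730357, minus strand): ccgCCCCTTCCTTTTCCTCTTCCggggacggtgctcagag

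Rpl21 moved in the common order but by more than the rest, at 171 and 71.6 CPM in OxtrTg against 157 and 73.1 in WT, ratios of 2.39 and 2.15. It was low in the same libraries in which Rpl34 was high. Rplp0, the stalk base protein P0 and a common reference gene in quantitative PCR, was at 712 and 1107 CPM in OxtrTg against 1180 and 727 in WT. It was thus high in OxtrTg replicate 4 and WT replicate 5, which share no genotype. Rpl30 was at 70.7 and 78.7 CPM in OxtrTg against 99.6 and 53.8 in WT. Rplp1 and Rplp2, the stalk partners of Rplp0, kept the common order: Rplp2 was at 425 and 352 CPM against 417 and 354. Over the 81 members the differences between replicates in the 2 genotypes, which come from separate libraries, had a Pearson correlation of 0.785. Without Rpl34 it was 0.383, and the Spearman correlations were 0.271 with Rpl34 and 0.243 without. Over all genes tested the Pearson correlation was -0.146. Libraries are not paired across genotypes, so the sign of each correlation depends on which replicate is subtracted from which. Ratios above 1.5-fold in either direction were seen in 6 members between the OxtrTg libraries and in 5 between the WT libraries.

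**Figure D4:**
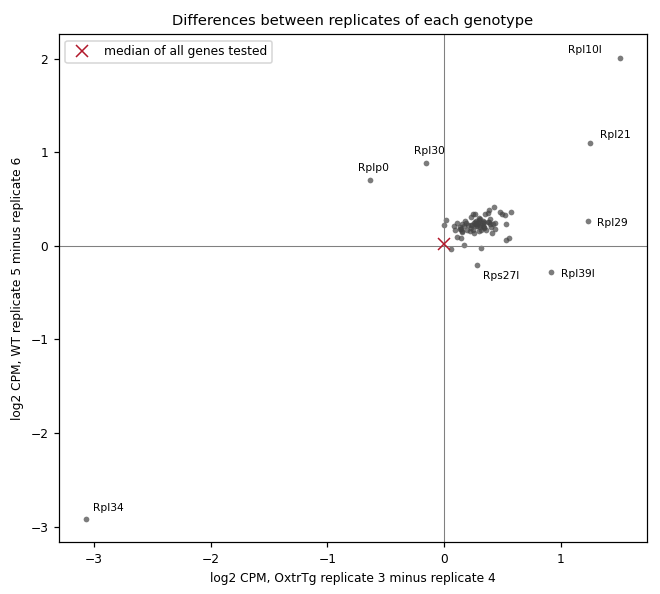
Each point is a tested ribosomal protein gene, placed by its log2 CPM difference between the OxtrTg libraries (x axis) and between the WT libraries (y axis); the cross is the median of all genes tested. Most members lie together in the upper right, and Rpl34 lies far off at -3.07 and -2.92.

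**Figure D5:**
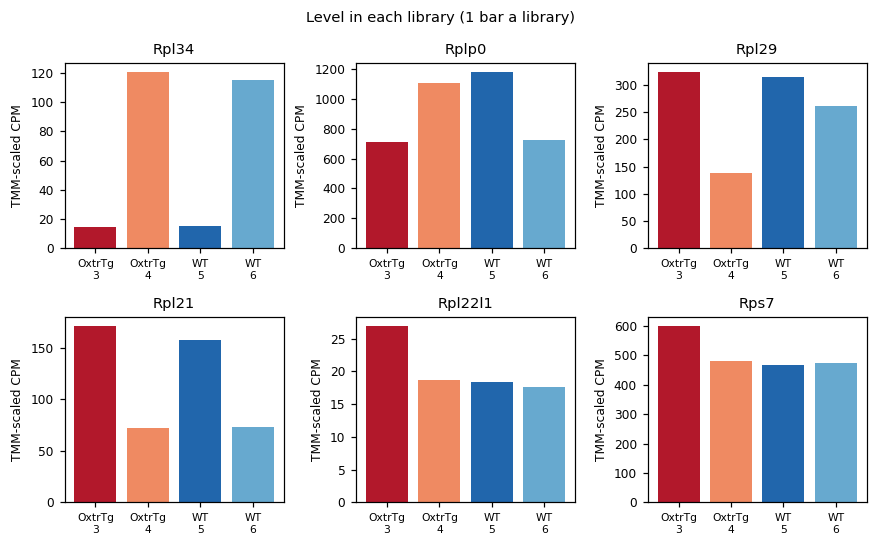
TMM-scaled CPM of 6 ribosomal protein genes in the 4 libraries, 1 bar a library. Rpl34 and Rpl21 show opposite orders, Rplp0 is high in OxtrTg replicate 4 and WT replicate 5, Rpl29 is low in OxtrTg replicate 4, and Rpl22l1 and Rps7 are highest in OxtrTg replicate 3.

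All 6 paralogues had a lower mean FPKM than the gene they are named after. Rpl22l1, which can stand in for Rpl22 in the ribosome, was at 13.7 and 9.16 FPKM in OxtrTg and 9.41 and 8.77 in WT. Rpl22 was at a mean of 98.1 FPKM. Rpl22l1 had a log2 difference of 0.34 ± 0.25 between genotypes, with the lowest p of all members (unadjusted p = 0.248, adjusted p = 1 in edgeR), while Rpl22 had 0.04 ± 0.17. OxtrTg replicate 3 alone stood clear of the other 3 libraries. The difference of Rpl22l1 was 0.05 without that library and 0.58 without OxtrTg replicate 4 (unadjusted p = 0.0446, adjusted p = 0.547 in edgeR).

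Rps27l, a target of p53, was at 96.2 and 76.4 FPKM in OxtrTg and 85.8 and 95.9 in WT, beside a mean of 217 FPKM for Rps27. It was among the few members higher in WT replicate 6 than in WT replicate 5. Rpl7l1 was at 32.2 to 39.1 FPKM in the 4 libraries and Rpl7 at a mean of 434. Rpl39l and Rpl10l, paralogues known from male germ cells of the mouse, had 15 to 31 and 6 to 32 counts a library, against means of 134 FPKM for Rpl39 and 395 for Rpl10. Rpl39l had 31 counts in OxtrTg replicate 3 and 15, 17 and 20 in the other libraries, and the largest positive log2 difference of all tested members, 0.41 ± 0.58, which was -0.18 without OxtrTg replicate 3. Rpl10l had 30 and 9 counts in OxtrTg and 32 and 6 in WT. Rpl3l, known from skeletal and heart muscle, had 1, 1, 1 and 3 counts, which is at the floor of 3 counts a library, and was not tested, like Rpl24. Rpl3 was at a mean of 350 FPKM.

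Proteins of the ribosome that carry other names stood beside the members. Fau, which encodes the small subunit protein eS30 as a fusion, was at a mean of 325 FPKM and kept the common order, at 342 and 276 CPM in OxtrTg against 351 and 278 in WT. Rack1, a scaffold on the small subunit, was at 1050 and 998 CPM against 1017 and 957. Rpl36al had 17 and 12 counts against 8 and 11.

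The genes that make and use ribosomes were listed beside them, and in each list edgeR called 0 higher and 0 lower, as did DESeq2 in either direction. Of 38 initiation factors, 22 were positive between genotypes (median 0.01). Eif5a was at 399 and 361 CPM in OxtrTg against 398 and 393 in WT, and the initiation factor 3 subunits Eif3h, Eif3e and Eif3k had log2 differences of 0.06, 0.11 and 0.12. Of 10 elongation factors, 5 were positive, with a median of -0.02. Eef1a1, which brings aminoacyl-tRNA to the ribosome, was at 7047 and 7691 CPM against 7288 and 6928. Eef2, the translocase, was at 2562 and 2823 against 2430 and 2468. The smallest p values of that list belonged to Eef2k, the kinase that inhibits Eef2 (log2 difference -0.23 ± 0.13), and Etf1, a termination factor listed with them (-0.14 ± 0.10). Eef1a1 and Eef2, though TOP mRNAs, did not share the members' order between the OxtrTg libraries.

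The list of 20 other TOP genes overlaps the lists above, since it also holds Eef1a1, Eif3e and Eif3k. Of the 20, 16 were positive between genotypes, with a median of 0.05 beside -0.00 over all genes tested. In replicate 3 over 4 and replicate 5 over 6, 16 and 18 were higher, by medians of 0.11 and 0.10. Of all genes tested 50.3% and 52.5% were. Tpt1, a TOP gene of growth control, was at 2441 and 2180 CPM against 2389 and 2302. Of 44 ribosome assembly genes, 17 were positive and 27 negative, with a median of -0.03, and 36 and 30 were higher in replicate 3 and in replicate 5, by medians of 0.14 and 0.06. Npm1, the nucleolar chaperone, was at 661 and 562 CPM against 615 and 555. Rrp1, Nhp2 and Ebna1bp2, also of that list, had log2 differences of -0.01, -0.16 and -0.18. RNA polymerase 1 genes had a median of 0.01 over 12 genes, of which 10 and 10 were higher in replicate 3 and in replicate 5 (medians 0.18 and 0.06). Their log2 differences between genotypes were -0.01 for Ubtf, 0.02 for Polr1d, 0.27 for Polr1e and -0.17 for Taf1a. Of 19 genes of mTOR and TOP control, 11 were positive, with a median of 0.03. Myc, a driver of ribosome production, was at 69.5 and 64.0 CPM against 77.7 and 77.2, a log2 difference of -0.21 ± 0.10 (unadjusted p = 0.0979, adjusted p = 1 in edgeR). Eif4ebp1, the translation repressor that mTOR inactivates, was at 59.6 and 46.8 CPM against 39.7 and 45.1. Maf1 and Pdcd4 of the same list had log2 differences of 0.07 and 0.16.

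Mitochondrial ribosomal protein genes, which build a separate ribosome, were read beside the cytosolic set. Of 77 tested, 27 were positive and 50 negative between genotypes, with a median of -0.05. They were higher in OxtrTg replicate 3 than 4 in 54 of 77 (median 0.09), but higher in WT replicate 5 than 6 in only 33 of 77 (median -0.05). Mrpl33 had the smallest p among them, at 11.9 and 13.8 CPM in OxtrTg against 17.7 and 18.2 in WT (log2 difference -0.48 ± 0.22, unadjusted p = 0.0842, adjusted p = 1 in edgeR). Mrpl16, Mrpl34 and Mrps21 had log2 differences of -0.36, -0.21 and -0.12. The difference between the mitochondrial and the cytosolic set was not tested.

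Among 5558 other genes with a mean of at least 10 FPKM, those whose centred log2 CPM over the 4 libraries lay nearest to the median member were Ubqln4, Itpk1, Gm2000, Hnrnpd and Evc2, at Euclidean distances of 0.017 to 0.031. Gm2000 is also a gene with which Rpl35 shares 37.6% of its windows. The gene nearest to Rpl34, looked up after its values were seen, was Grem1, a BMP antagonist of the follicle, at a distance of 0.868. Grem1 was at 9.78 and 78.7 CPM in OxtrTg against 21.1 and 89.5 in WT. Inhba, the activin subunit, followed at a distance of 1.35, at 348 and 1369 CPM in OxtrTg against 509 and 1342 in WT. With 4 libraries, such likeness is a description of the order of 4 values.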

How the data were processed

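RNA from mouse ovary was made into 4 libraries with a NEBNext Ultra II kit, per the labels. Read counts per gene were deposited as whole numbers without normalisation, with FPKM beside them, per the file headers. FPKM recomputed from count, length and library total differed from the deposited FPKM by at most 0.0891 to 0.282 a library. The submitters' processing notes name the build mm10. Which aligner, counter, strand setting and annotation were used is not given in the sources used here. All 83 members were found in GENCODE M21 (GRCm38) on the same chromosome, but 1 with the same start and end, so no position is taken from the table. Replicates differed by more than counting error (chi-square per degree of freedom over genes 43.1 in OxtrTg and 41.4 in WT). Over 82 members the values were 225.5 in OxtrTg and 186.1 in WT. This measure rises with count, and most members have high counts. A count of 0 allows 3 counts, 0.182 to 0.197 CPM a library. Intervals and floors cover counting error only.

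The test was edgeR 4.0.16 (R 4.3.3), quasi-likelihood, with TMM scaling and filterByExpr (minimum count 10), over 15311 genes with Benjamini-Hochberg adjustment and a threshold of 0.05. SE is the absolute log2 difference divided by the square root of the quasi-likelihood F value. The fit has 2 residual degrees of freedom, to which the test adds those borrowed across genes. Scripts were tested on simulated data. Differences between libraries use log2 CPM with a prior count of 2. Alternatives were DESeq2 1.42.0, limma 3.58.1 (voom, or with trend on log2(FPKM + 1) or log2(FPKM + 0.1) at a mean FPKM of at least 1 or unfiltered), other scalings and filters, and each library left out. The members and lists were chosen with earlier results of these data known. Members named are the extremes of level and difference, the paralogues, fixed members of known role, and those called in any fit; and, from other lists, the 2 genes of highest mean FPKM and the 2 of smallest p. A few genes of the member and other lists are not reported here by name. Others, such as Rpl34, Rpl21, Rpl30 and Rpl23a, were chosen after their values were seen.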

Additional observations from a re-analysis of the deposited data

How the results depend on the processing

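No paired analysis was possible because the groups share no replicate number. Over all genes, DESeq2 called 70 (67 higher, 3 lower), and the other edgeR and limma settings run on all 4 libraries 0. With each library left out in turn, edgeR called 0 to 65 genes (65 without OxtrTg replicate 4) and 0 ribosomal protein genes. DESeq2 with each library left out, added after the data were seen, called 44, 55, 161 or 494 genes without WT replicate 6, OxtrTg replicate 3, WT replicate 5 or OxtrTg replicate 4, and 0 or 1 ribosomal protein gene. The members' median log2 difference was 0.02 to 0.04 under the other settings on 4 libraries. It turned negative without OxtrTg replicate 3 (-0.12) or WT replicate 6 (-0.08), and was 0.17 without OxtrTg replicate 4 and 0.15 without WT replicate 5. It was -0.23 for OxtrTg replicate 4 against WT replicate 5 alone. These remain when the library low in oviduct markers and the one high in luteal markers are removed. They were not matched in cell makeup, with oocyte marker sums of 454 and 640 CPM. Their ribosomal protein shares of counts were 3.71% and 4.40%. The difference in share of counts ran from -0.31 to 0.47 percentage points as each library was left out. Each median and share rests on which libraries are compared, and the cause was not tested. Where a library left out leaves a genotype with 1, that library is assumed to vary like the other genotype's. Of the 10 members with the most positive or negative differences, 6 changed sign with a library left out, in edgeR and DESeq2 alike. The edgeR and DESeq2 values together ran from -1.07 to 0.17 for Rpl29 (edgeR -1.06 and DESeq2 -1.07 without OxtrTg replicate 3), -0.14 to 0.40 for Rpl35, -0.19 to 0.82 for Rpl39l, -0.42 to 0.32 for Rplp0, -0.34 to 0.0555 for Rps27 and -0.22 to 0.0670 for Rps27l. The sign changes were at -0.135 and -0.143 (Rpl35) and -0.177 and -0.187 (Rpl39l) without OxtrTg replicate 3, 0.208 and 0.314 (Rplp0, DESeq2) without OxtrTg replicate 3 or WT replicate 5, 0.0512 and 0.0508 (Rps27, DESeq2) without OxtrTg replicate 4 or WT replicate 5, and 0.0654 and 0.0353 (Rps27l, DESeq2) without OxtrTg replicate 4 or WT replicate 6. In edgeR the lowest values were -0.327 for Rps27 and -0.214 for Rps27l.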
